A study of Cricetiscus sungorus with 16 samples.

Results

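Signals of 10 germ cell and meiosis genes were followed in the developing ovary of the Siberian hamster. The genes were chosen by their RefSeq identifiers on a mouse oligonucleotide array and make up 10 of its 33272 transcript identifiers. They were Dazl (NM_010021), Ddx4 (NM_010029), Sycp1 (NM_011516), Sycp3 (NM_011517), Stag3 (NM_016964), Smc1b (NM_080470), Rec8 (NM_020002), Msh5 (NM_013600), Spo11 (NM_012046) and Dmc1 (NM_010059). The submitters asked how ovarian gene expression differs between photoperiods at each age, and how it develops with age in each photoperiod.

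All animals were female hamsters carried through gestation and kept afterwards in a single photoperiod, and both ovaries were taken. The 4 groups were short days (SD, 10 h of light) at 8 wk of age, long days (LD, 16 h of light) at 8 wk, SD at 3 wk and LD at 3 wk. Each group held 4 hamsters with their own animal codes, and RNA of each hamster was hybridised to an array of its own, which gave 16 arrays. For the SD hamsters at 8 wk the labels conflict. Their title and treatment fields give 16 h beside the letters SD and their description gives 10 h, so they were taken as SD, and no other label settles this.

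Dazl is an RNA-binding protein and Ddx4 (Vasa) an RNA helicase, and in the mouse both mark germ cells. The other genes serve meiotic prophase in the mouse. Sycp1 forms the transverse filaments and Sycp3 the axial elements of the synaptonemal complex that joins homologous chromosomes. Rec8, Stag3 and Smc1b are subunits of the meiotic cohesin that holds sister chromatids together. Spo11 makes the DNA double-strand breaks that start recombination, Dmc1 is the recombinase that finds the homologue, and Msh5 acts in crossover formation. In the mouse, oocytes pass through early meiotic prophase before birth and then stay arrested inside follicles.

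Hamster RNA gave signal on most mouse probes, with 58.0% to 75.7% of the 41174 probes well above background on an array. Levels below are log2 processed intensities minus the log2 of the array's 75th percentile. That percentile ran from 320 to 1055 intensity units and was lowest on slide 1. The 4 slides held 4 arrays each, 1 per group, and replicate numbers below are slide numbers. Over 18560 identifiers measured on every array, slide held 42.0% of the variance and group 33.1%, so each comparison is given from a fit without slide and from a blocked fit, with slide as a block. Every slide had its groups in the same positions, so group and position cannot be told apart. It was not tested whether hamster transcripts of these genes gave the probes their signal, so all values are levels or differences of probe signal, and levels of different genes are not set against each other.

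Of the 10 genes, 8 passed the detection filter, which asked for signal well above background on every array of at least 1 group. The germ cell markers Dazl and Ddx4 were well above background on 16 of 16 arrays, as were Sycp1, Stag3, Rec8, Msh5 and Spo11. Smc1b was well above background on 14 of 16 arrays and passed through the 3-wk groups alone, since 1 array of each 8-wk group was not well above background. Sycp3 and Dmc1 did not pass and were not tested. Sycp3 was well above background on 1 array, that of SD 3 wk replicate 2, and Dmc1 on 1 array, that of SD 8 wk replicate 1, where its spot was flagged as an outlier. Dazl, Rec8, Msh5 and Spo11 each had a further, dimmer probe, and the brighter one stands for the gene below.

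**Figure D1:**
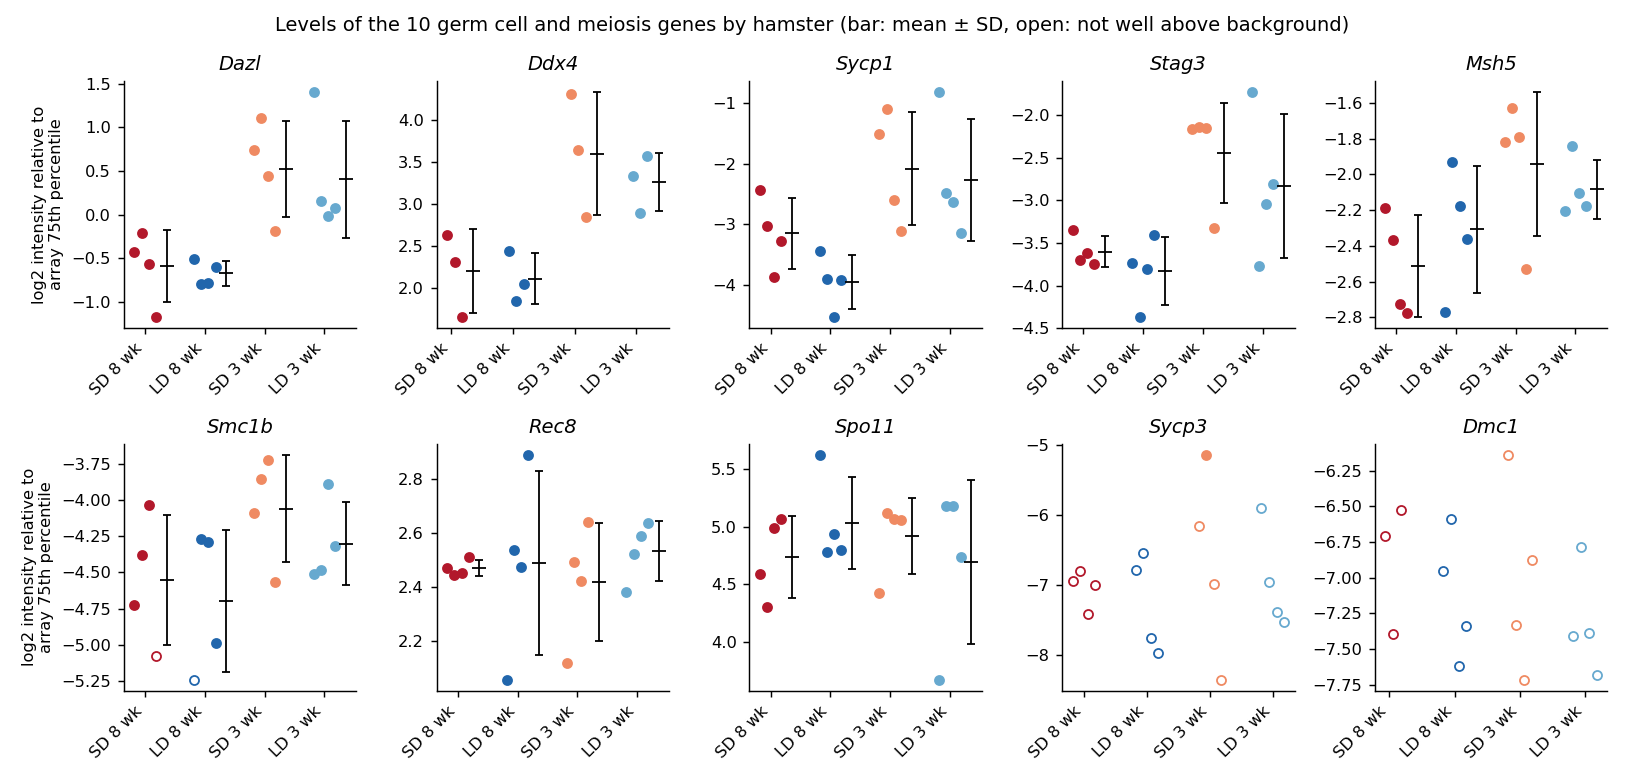
Level of each gene on each array, as log2 intensity over the array's 75th percentile, by group (SD 8 wk, LD 8 wk, SD 3 wk, LD 3 wk). Filled points were well above background and open points were not, and bars give mean ± SD where the gene was tested. In Dazl (by a narrow gap) and Ddx4 every 8-wk hamster lies below every 3-wk hamster, while Rec8 and Spo11 show no such separation. The share of all identifiers that separate likewise was not counted.

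Germ cell marker signal was lower at 8 wk than at 3 wk. In SD hamsters both germ cell markers fell, Dazl 2.17-fold and Ddx4 2.63-fold. They are 2 of the 8 tested genes, where 5.72% of all 20369 tested identifiers were called lower in this comparison. In LD hamsters the differences of Dazl and Ddx4 were of similar size but did not pass the threshold of 0.05 on the adjusted p without slide as a block, and passed it with slide as a block. Levels are relative to the signal of the whole ovary. Germ cell number, the share of germ cells in the tissue and RNA per germ cell therefore cannot be told apart.

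The Dazl level was −0.43, −0.21, −0.56 and −1.17 in SD hamsters at 8 wk, against 0.74, 1.11, 0.44 and −0.19 in SD hamsters at 3 wk (replicates 1 to 4 each). In LD hamsters it was −0.51, −0.80, −0.79 and −0.60 at 8 wk, against 1.40, 0.15, −0.02 and 0.07 at 3 wk. The 8-wk and 3-wk values did not overlap in either photoperiod. In SD the gap was narrow, from −0.21 in replicate 2 at 8 wk to −0.19 in replicate 4 at 3 wk. How many of all identifiers separate likewise, or are lower at 8 wk on every slide, was not counted, for this gene or for those below. Replicate 4 was the lowest of its group in SD at both ages, and LD 3 wk replicate 1 lay far above the other 3 hamsters of its group. The Dazl difference between 8 and 3 wk was −1.12 ± 0.31 in SD (log2 ± SE, adjusted p by limma = 0.0281, and 0.0063 in the blocked fit). It was −1.08 ± 0.31 in LD (limma adjusted p = 0.0650, and 0.0156 in the blocked fit). Dazl was lower at 8 wk on 4 of 4 slides in both photoperiods, with differences of −0.98 to −1.32 in SD and −0.67 to −1.91 in LD. Without LD 3 wk replicate 1 the LD difference was −0.74 (limma adjusted p = 0.179). The further Dazl probe was dim, well above background on 1 and 1 of 4 arrays in SD and LD at 8 wk and on 4 and 3 of 4 in SD and LD at 3 wk. It passed the filter through SD 3 wk alone, the group where its signal was highest. Its differences between 8 and 3 wk were −1.82 in SD and −1.37 in LD, and for that reason no test of these is given.

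The Ddx4 spot was flagged as an outlier on all 4 arrays of slide 1, so its values come from 3 hamsters per group (replicates 2 to 4). The Ddx4 level was 2.63, 2.31 and 1.66 in SD hamsters at 8 wk, against 4.31, 3.64 and 2.85 in SD hamsters at 3 wk. In LD hamsters it was 2.44, 1.85 and 2.04 at 8 wk, against 3.33, 2.89 and 3.57 at 3 wk. All 8-wk hamsters lay below all 3-wk hamsters, whichever the photoperiod. The Ddx4 difference was −1.40 ± 0.35 in SD (log2 ± SE, adjusted p by limma = 0.0227, and 0.0064 in the blocked fit). It was −1.15 ± 0.35 in LD (limma adjusted p = 0.0984, and 0.0290 in the blocked fit), and Ddx4 was lower at 8 wk on 3 of 3 slides in both photoperiods. The flagged Ddx4 values of slide 1 were 2.61 in SD 8 wk, 2.22 in LD 8 wk, 3.999 in SD 3 wk and 4.48 in LD 3 wk, which are also lower at 8 wk. With them kept, a choice made after seeing the data, the LD difference was −1.43 (limma adjusted p = 0.0228) and the SD difference −1.39 (limma adjusted p = 0.0125).

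The SD calls of both markers depended on single hamsters. The adjusted p of Dazl was between 0.0531 and 0.105 (limma) when 1 of replicates 3 and 4 of SD 8 wk or of replicates 1, 2 and 3 of SD 3 wk was left out. That of Ddx4 was between 0.0505 and 0.0919 (limma) when 1 of replicates 3 and 4 of SD 8 wk or of replicates 2 and 3 of SD 3 wk was left out. Both differences were negative in each of 28 alternative fits in both photoperiods, and these fits share most of their hamsters.

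**Figure D2:**
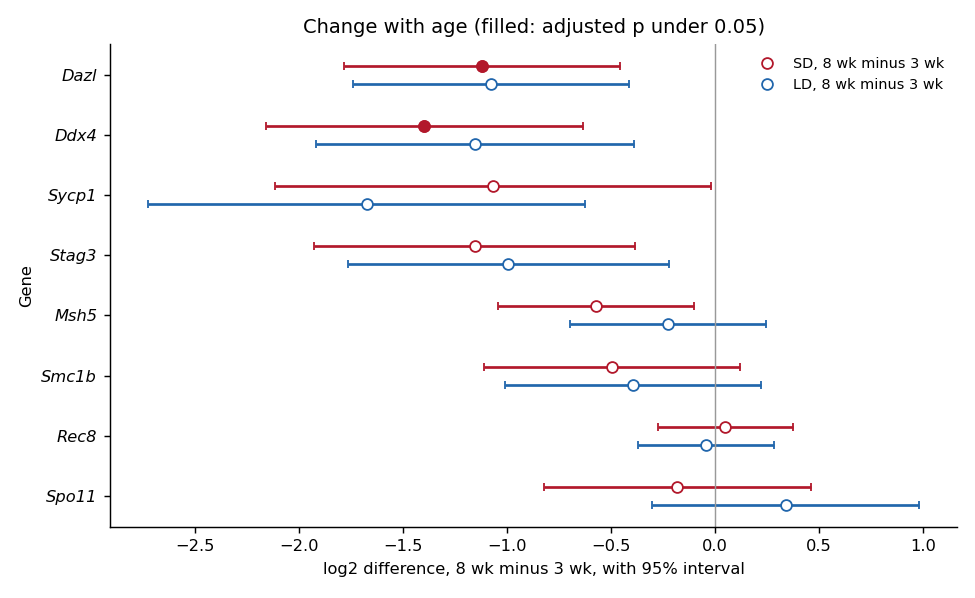
Log2 difference between 8 and 3 wk (8 wk minus 3 wk) of the 8 tested genes in SD and LD hamsters, with 95% intervals of the fit without slide as a block. Filled points, Dazl and Ddx4 in SD, have an adjusted p under 0.05, and the points of Rec8 lie nearest to 0.

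The synaptonemal complex gene Sycp1 had lower signal at 8 wk on every slide, but its call rested on the block. The Sycp1 level was −3.43, −3.91, −4.52 and −3.92 in LD hamsters at 8 wk, against −0.83, −2.48, −2.63 and −3.15 in LD hamsters at 3 wk, and these values did not overlap. In SD hamsters it was −2.44, −3.03, −3.86 and −3.27 at 8 wk, against −1.52, −1.09, −2.60 and −3.12 at 3 wk, and these overlapped. LD 3 wk replicate 1 was the highest of the 16 arrays for Sycp1. The Sycp1 difference between ages was −1.67 ± 0.49 in LD, a 3.19-fold difference (log2, SE; limma adjusted p = 0.0699, and 0.0055 in the blocked fit). It was −1.07 ± 0.49 in SD (limma adjusted p = 0.209, and 0.0251 in the blocked fit). Within slides the SD difference ran from −0.15 on slide 4 to −1.93 on slide 2, and the LD difference from −0.77 on slide 4 to −2.61 on slide 1. Without LD 3 wk replicate 1 the LD difference was −1.19 (limma adjusted p = 0.209). With normexp background correction the Sycp1 difference was −0.70 in SD and −0.80 in LD. The partner gene Sycp3 ran from −8.35 to −5.14 over all arrays and was not well above background on 15 of them, so no difference is given.

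Among the meiotic cohesin subunits, Stag3 had the largest difference between ages, Smc1b had smaller ones and Rec8 differed by less than its spread. The Stag3 level was −3.35, −3.70, −3.61 and −3.75 in SD hamsters at 8 wk, against −2.17, −2.15, −2.16 and −3.32 in SD hamsters at 3 wk. These groups did not overlap, although SD 3 wk replicate 4 lay close to the 8-wk hamsters. In LD hamsters Stag3 was −3.74, −4.37, −3.81 and −3.41 at 8 wk, against −1.73, −3.78, −3.04 and −2.80 at 3 wk, and the groups overlapped through replicate 2 at 3 wk. The Stag3 difference between ages was −1.16 ± 0.36 in SD (log2 ± SE, adjusted p by limma = 0.0517, and 0.0212 in the blocked fit). In LD it was −0.99 ± 0.36 (limma adjusted p = 0.164, and 0.0675 in the blocked fit). Stag3 was lower at 8 wk on 4 of 4 slides in both photoperiods. Without SD 3 wk replicate 4 the SD difference was −1.45 (limma adjusted p = 0.0174), and without LD 3 wk replicate 1 the LD difference was −0.62 (limma adjusted p = 0.435). With normexp background correction the Stag3 difference was −0.63 in SD and −0.49 in LD.

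Smc1b, the meiosis-specific SMC subunit, averaged −4.55 ± 0.45 in SD and −4.70 ± 0.49 in LD at 8 wk, against −4.06 ± 0.37 in SD and −4.30 ± 0.29 in LD at 3 wk (SD, n = 4). Its groups overlapped, and its differences were −0.49 in SD and −0.39 in LD. No test of these is given, since the filter kept Smc1b through the 3-wk groups, and with normexp background correction they were −0.14 and −0.0189. Smc1b was lower at 8 wk on 4 of 4 slides in SD and on 3 of 4 in LD. Rec8, the meiotic kleisin subunit, averaged 2.47 ± 0.03 in SD and 2.49 ± 0.34 in LD at 8 wk, against 2.42 ± 0.22 in SD and 2.53 ± 0.11 in LD at 3 wk (SD, n = 4). Its difference was 0.05 in SD, with a 95% interval from −0.28 to 0.38, and −0.04 in LD, with an interval from −0.37 to 0.28. The further Rec8 probe gave −0.08 in SD and −0.15 in LD.

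The recombination genes did not move together. Msh5 averaged −2.51 ± 0.28 in SD hamsters at 8 wk, against −1.94 ± 0.40 in SD hamsters at 3 wk (SD, n = 4). The Msh5 difference was −0.57 ± 0.22 in SD (log2 ± SE, adjusted p by limma = 0.122, and 0.0310 in the blocked fit). With normexp background correction it was −0.37. In LD hamsters Msh5 averaged −2.31 ± 0.36 at 8 wk, against −2.08 ± 0.17 at 3 wk, a difference of −0.23 (limma adjusted p = 0.787). Msh5 was lower at 8 wk on 4 of 4 slides in both photoperiods. The further Msh5 probe had differences of −0.23 in SD and −0.06 in LD and was lower on 3 of 4 slides in SD and 2 of 4 in LD.

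Spo11 gave strong signal on its brighter probe, and its 2 probes disagreed. On the brighter probe the Spo11 level was 4.59, 4.30, 4.98 and 5.07 in SD hamsters at 8 wk, against 4.43, 5.12, 5.07 and 5.06 in SD hamsters at 3 wk. In LD hamsters it was 5.62, 4.78, 4.93 and 4.80 at 8 wk, against 3.67, 5.18, 5.18 and 4.73 at 3 wk. The groups overlapped, and the differences were −0.18 in SD (limma adjusted p = 0.836) and 0.34 in LD (limma adjusted p = 0.739). The LD difference was 1.95 on slide 1 and between −0.41 and 0.07 on the other slides, and it was 0.00064 without LD 3 wk replicate 1. On the dimmer Spo11 probe, SD hamsters at 8 wk had −0.78, −1.29, −1.22 and −0.99, against −1.11, −1.87, −2.03 and −1.92 in SD hamsters at 3 wk. This probe was higher at 8 wk on 4 of 4 slides, with a difference of 0.66 ± 0.23 (log2, SE; limma adjusted p = 0.0850, and 0.0443 in the blocked fit). In LD its difference was 0.17, which came from slide 2 (1.08), while the probe was lower at 8 wk on the other 3 slides, at −0.05 to −0.21. Dmc1, the remaining recombination gene, ran from −7.71 to −6.14 on the 15 arrays where its spot was not flagged and was well above background on none of these.

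**Figure D3:**
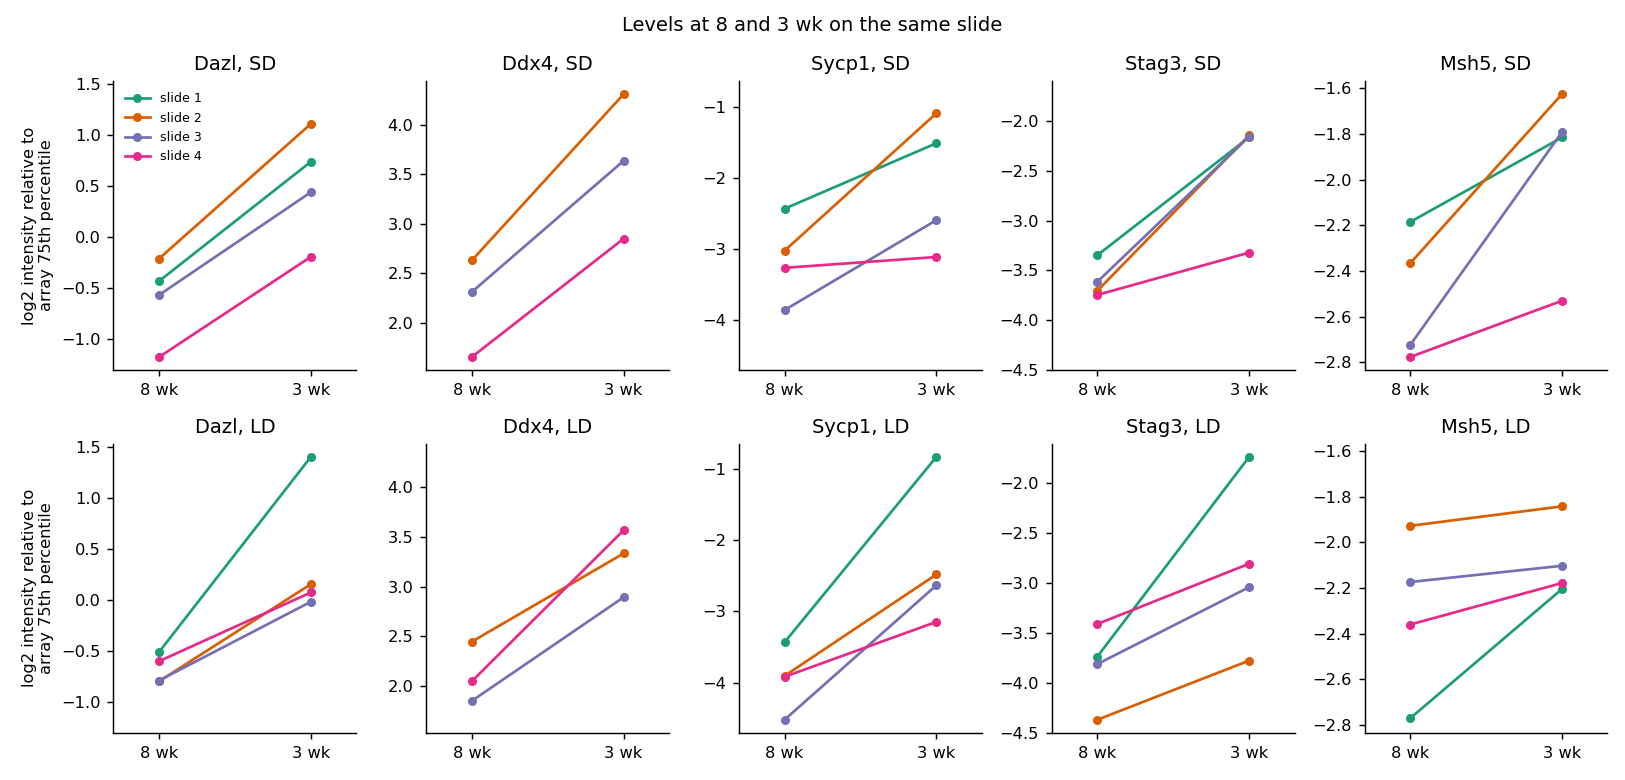
Levels of Dazl, Ddx4, Sycp1, Stag3 and Msh5 at 8 and 3 wk, joined where the arrays lie on the same slide, as log2 intensity over the array's 75th percentile, with SD hamsters above and LD hamsters below. Every line is lower at 8 wk, on 4 of 4 slides for 4 of the genes and on 3 of 3 for Ddx4, which was flagged on slide 1. The genes drawn are those called lower in SD with slide as a block, a choice that favours agreement between slides in SD. The share of all identifiers lower on every slide was not counted. Smc1b, Rec8 and Spo11, not drawn, were not lower on every slide in both photoperiods.

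Over the 8 tested genes, the differences between 8 and 3 wk were negative for 7 in SD and for 7 in LD, with medians of −0.82 and −0.69. Smc1b entered this count through the 3-wk groups, where its signal was higher, and without it 6 of 7 were negative in both photoperiods, with medians of −1.07 and −0.99. With normexp background correction the medians of the 8 genes were −0.50 in SD and −0.30 in LD. Over all 20369 tested identifiers the medians were 0.02 and −0.01. Without slide as a block, limma called 2 of the 8 lower in SD and 0 of 8 in LD, where 5.72% and 2.62% of all identifiers were called lower. At an unadjusted p under 0.05 these counts were 5 and 4, where 11.3% and 8.60% of all identifiers were lower. With slide as a block, Dazl, Ddx4, Sycp1, Stag3 and Msh5 were called lower in SD and Dazl, Ddx4 and Sycp1 in LD, which is 5 and 3 of 8. With the block 11.6% and 7.05% of all identifiers were called lower.

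No photoperiod difference of the 8 tested genes passed the test at either age. At 8 wk, SD minus LD ran from −0.30 (Spo11) to 0.80 (Sycp1), and 0 of 8 genes were called by limma, where 1.13% of all identifiers were called (2.92% in the blocked fit, which also called 0 of 8). How many of all identifiers had an unadjusted p under 0.05 here was not counted. Among the 8 genes none had one without the block, and 1 did with it. That gene was Sycp1, at −3.15 ± 0.59 in SD against −3.95 ± 0.45 in LD hamsters at 8 wk (SD, n = 4). Its difference of 0.80 ± 0.49 (log2, SE) had an adjusted p of 0.895 (limma), with an interval from −0.25 to 1.85. With slide as a block the adjusted p was 0.243 and the unadjusted p 0.0245. Sycp1 was higher in SD on 4 of 4 slides at 8 wk, by 0.65 to 0.997, but the difference failed the correction, and with normexp background correction it was 0.25. Dazl differed by 0.08, with an interval from −0.58 to 0.74, and Ddx4 by 0.09, with an interval from −0.68 to 0.85.

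At 3 wk, SD minus LD ran from −0.11 (Rec8) to 0.39 (Stag3). None of the 8 genes was called by limma, as was 0 (0%) of all 20369 identifiers. None of the 8 had an unadjusted p under 0.05 with or without the block, and the share of all identifiers that did was not counted. Dazl averaged 0.53 ± 0.55 in SD and 0.40 ± 0.67 in LD (SD, n = 4), a difference of 0.12 with an interval from −0.54 to 0.78. Ddx4 averaged 3.60 ± 0.73 in SD and 3.26 ± 0.34 in LD (SD, n = 3), a difference of 0.33 with an interval from −0.43 to 1.097. Sycp1 differed by 0.19, with an interval from −0.86 to 1.24. These intervals reach past 0.5 on the log2 scale for each of these 3 genes. Photoperiod differences of that size are therefore not excluded with 4 hamsters per group (3 for Ddx4).

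**Figure D4:**
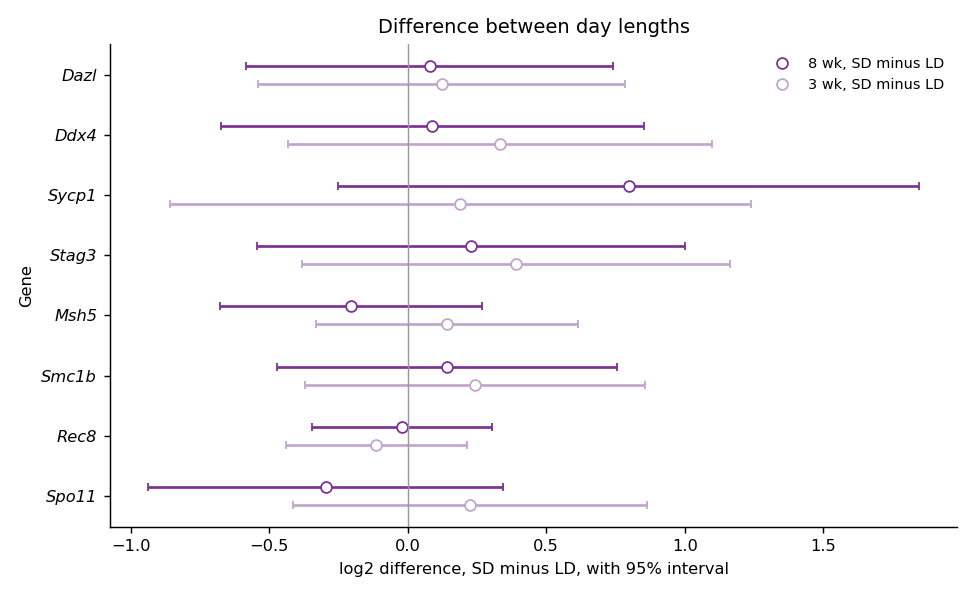
Log2 difference between photoperiods (SD minus LD) at 8 and 3 wk for the 8 tested genes, with 95% intervals of the fit without slide as a block. All intervals include 0, and Sycp1 at 8 wk has the point farthest from it, at 0.80.

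The age change of a gene in SD minus its age change in LD ran from −0.52 (Spo11) to 0.61 (Sycp1). The limma fit called 0 of the 8 genes without or with slide as a block, where 0.054% and 0.152% of all identifiers were called. Of the 8 genes 0 had an unadjusted p under 0.05 in either fit, and the share of all identifiers that did was not counted. The Sycp1 value had an interval from −0.88 to 2.09 and the Spo11 value from −1.43 to 0.39. The calls of Dazl and Ddx4 in SD and not in LD without the block were therefore not shown to differ between the photoperiods.

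In order of mean level, the groups ran SD 3 wk, LD 3 wk, SD 8 wk and LD 8 wk for Dazl, Ddx4, Sycp1 and Stag3. For each of these genes the neighbours that differ in photoperiod alone did not pass the test, and their ranges overlapped. The ranges of LD 3 wk and SD 8 wk, the neighbours in the middle of the order, did not overlap for Dazl and Ddx4 and overlapped for Sycp1 and Stag3. For Smc1b the order was the same, and for Msh5 LD 8 wk stood above SD 8 wk.

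The signal of Dazl varied together with that of Stag3 between hamsters, and other pairs varied in how close they were. With slide means removed, the Pearson correlation of Dazl was 0.96 with Stag3 and 0.89 with Sycp1 over 16 arrays and 0.96 with Ddx4 over 12 arrays. Hamsters of the 2 ages form separate clusters here, so these values hold the age difference as well as the variation within groups. With group means removed too, Dazl correlated at 0.93 with Stag3 and 0.71 with Sycp1, and at 0.82 with Ddx4. Stag3 correlated at 0.81 with Sycp1 and 0.81 with Ddx4, and Ddx4 at 0.76 with Smc1b, 0.62 with Msh5 and 0.28 with Sycp1. In the same residuals Dazl correlated at 0.11 with Msh5, 0.31 with Rec8 and −0.60 with Spo11. Arrays of a slide share a scan day, the residuals keep 9 degrees of freedom (6 for Ddx4), and these correlations are descriptions with no test.

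**Figure D5:**
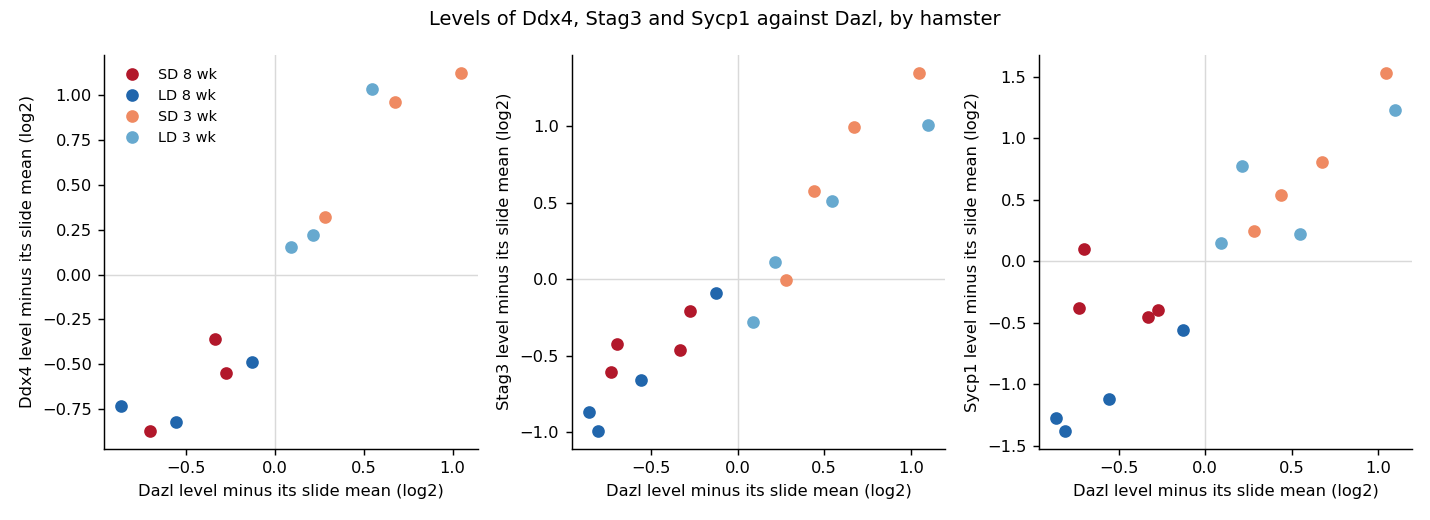
Levels of Ddx4, Stag3 and Sycp1 (vertical) against Dazl (horizontal), each minus its slide mean on the log2 scale, with 1 point per array and colours for SD 8 wk, LD 8 wk, SD 3 wk and LD 3 wk. The 8-wk hamsters lie left of 0 and the 3-wk hamsters right of it on the Dazl axis, with correlations of 0.96, 0.96 and 0.89.

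The array identifiers whose pattern was most like each gene's were not members of the set. Likeness was the Pearson correlation over the arrays with slide means removed, among the identifiers measured on all 16 arrays, and ran from 0.87 to 0.996 for the nearest identifiers. Ddx4, measured on 12 arrays, could therefore not be found as a match of another gene. The identifier most like Dazl was X51971 (0.99), followed by NM_011983 (0.99), which was also the one most like Stag3 (0.97). X51971 differed between 8 and 3 wk by −1.01 in SD and −0.84 in LD, and NM_011983 by −1.02 in SD and −1.02 in LD. Both were picked by a likeness that holds the age difference, so no test of these is given. Among members of the set, Dazl ranked 6 for Stag3, and for Sycp1 Stag3 ranked 11 and Dazl 45. Rec8 and Spo11 ranked far lower for Dazl, at 7706 and 13000. For Dazl, Stag3 ranked 58 of the 18559 identifiers compared and Sycp1 ranked 380. The files do not pair these identifiers with gene names, so they stay unnamed.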

How the data were processed

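Per the labels' protocols, total ovarian RNA of each of 16 hamsters was amplified and labelled with Cy3, and the file headers give a 1-colour mouse array of 45018 spots. The authors extracted spots with Agilent Feature Extraction 10.5.1.1, per the file headers. The deposited intensity values are linear, background-corrected processed signals that the authors had not scaled between arrays. The value table deposited for the series repeats these intensity values uncentred, with column medians from 28.8 to 104 and 4 of 694064 cells over 1% apart. Deposited flags that mark outlier spots and signal well above background were also used, per the file headers.

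Levels are log2 of the processed signal minus the array's 75th percentile over 43379 spots that are not controls. Outlier spots were dropped, and a probe took the mean of its spots. A probe had to be well above background on all 4 arrays of a group (24998 of 41174 probes) and measured on at least 12 arrays and 2 per group. The brightest probe stood for an identifier, which left 20369. No spot was saturated. The number of arrays limits the precision. Fits used limma 3.58.1 in R 4.3.3 (lmFit, eBayes with trend) over all 16 arrays, with no slide term. Benjamini-Hochberg adjustment was over all 20369 identifiers, at a threshold of 0.05. The fit was tried on simulated arrays with independent noise. Those held no slide effect, so the trial does not show how the fit performs where slides differ. Arrays of a slide deviated from their group means together (24 pairs of groups on a slide, median correlation 0.450, lowest 0.225, against a median of −0.113 for other pairs), and the slide numbers come from the file headers. Tables and plots were made in Python 3.11.15. Every gene of the set was named, and the 1 identifier most like each tested gene was looked for (3 for Dazl and Ddx4). The genes and lists were chosen with earlier results of these data known. With no table of gene symbols, lists of other meiosis and germ cell genes and of ovarian cell type markers could not be matched. Alternatives covered background correction, normalization, the filter, probes, the slide block, the variance trend, the value table, the arrays fitted and leaving out each array. For the normexp alternative, local backgrounds above 3 array medians were set to that value (at most 23 spots on an array), because a few very large ones made the correction fail. Fits that kept outlier spots, dropped slide 1 or took the percentile over unflagged spots were added after seeing the data.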

Additional observations from a re-analysis of the deposited data

Results flagged for a closer look

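Levels of 51 sets of 4 arrays (each probe in each group) were searched for a hamster far from the other 3, and 5 were found. Chance gives about 1 in 20 such sets. Dazl on its brighter probe was 1.40 in LD 3 wk replicate 1, against −0.02 to 0.15 in the other 3 hamsters. Stag3 was −3.32 in SD 3 wk replicate 4, against −2.17 to −2.15 in the others. Spo11 on its brighter probe was 4.43 in SD 3 wk replicate 1, against 5.06 to 5.12. Rec8 on its further probe was 1.12 in the same hamster, against 1.48 to 1.495 in the others. Dazl on its dimmer probe was −4.74 in SD 8 wk replicate 1, against −7.32 to −7.09, and this was the 1 array of its group where that probe was well above background. Replicate 1 stands for slide 1, which held 4 of these 5 values and had the lowest intensities. The part of the slide in them was not tested.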

How the results depend on the processing

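The count of genes called lower at 8 wk in SD was 2, and it was 5 with slide as a replicate block, 1 with the mean of a gene's probes, and 0 to 4 without 1 array. It was 1 with the percentile over unflagged spots and 5 with outlier spots kept and slide as a replicate block, both chosen after seeing the data. In LD the count was 0, and it was 3 with slide as a replicate block and 0 to 1 without 1 array (1 without SD 3 wk replicate 4 or LD 3 wk replicate 2). With outlier spots kept it was 1, and 3 with the block too, both added after seeing the data. In SD the count was 0 when replicate 3 or 4 at 8 wk or replicate 2 or 3 at 3 wk was left out, 1 when it was replicate 1 at 3 wk and 4 when it was replicate 4 at 3 wk. The mean of the Dazl probes includes the dimmer one, which passed the filter through SD 3 wk alone, where it was highest. With that mean the Dazl adjusted p in SD was 0.0586 (limma), and with the percentile over unflagged spots it was 0.0654. That of Ddx4 was 0.0575 with only the groups compared (limma). The cause was not tested, except that fits without an array hold fewer hamsters. With outlier spots kept, the age change in SD minus that in LD was negative for 5 of 8 genes, against 6 of 8 with them dropped. Signs were followed for the age differences of all 8 tested genes. For the photoperiod differences and the age change in SD minus that in LD, only some genes were followed. Of the differences followed, those not called turned sign in 7 cases beside those without 1 array. With the mean of probes, SD minus LD at 8 wk was −0.0497 for Dazl and 0.0252 for Spo11, and the SD age difference was −0.0153 for Rec8 and 0.24 for Spo11. Without slide 1, an added alternative, Rec8 gave −0.0505 in SD and 0.0513 in LD, and Spo11 −0.20 in LD. Without 1 array, SD minus LD ran from −0.0731 to 0.45 for Dazl, from −0.0215 to 0.71 for Ddx4 and from −0.14 to 0.67 for Sycp1 at 3 wk. At 8 wk it ran from −0.0487 to 0.27 for Dazl and from −0.13 to 0.36 for Ddx4. The Rec8 age difference ran from −0.0496 to 0.12 in SD and from −0.18 to 0.10 in LD. The smaller differences of Sycp1, Stag3, Msh5 and Smc1b with normexp background correction, used with an offset of 50 added to every spot, are given above. With that correction the Sycp1 age change in SD minus that in LD was 0.0956. Differences of Dazl, Ddx4, Sycp1, Stag3 and Msh5 between ages kept their sign in all 28 alternatives, which share most of their arrays. Those of Smc1b did too, but the filter kept Smc1b through the 3-wk groups, where its signal was higher. Limits are 4 hamsters per group, mouse probes on hamster RNA, dim signal of Sycp3, Dmc1 and Smc1b, and the shared place of a group on the slide.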
